A study of Mus musculus with 4 samples.

Results

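The insulin-like growth factor (IGF) genes Igf1 and Igf2, their receptors Igf1r and Igf2r, and the binding protein genes Igfbp2, Igfbp3, Igfbp4, Igfbp5, Igfbp6 and Igfbp7 were followed through the cells of mouse hind limb muscle. These 10 genes were picked by symbol from the 32285 genes of the count matrices, and each symbol stood for 1 gene. IGF1 and IGF2 are secreted growth factors that signal through the IGF1 receptor, a tyrosine kinase, while the IGF2 receptor takes IGF2 up and sends it to lysosomes for breakdown. The IGF binding proteins hold the ligands outside the cell, where they prolong their life, keep them from the receptor or release them once a protease cuts the binding protein. In muscle and nerve the system is known for the growth of muscle fibers, the survival of Schwann cells and the sprouting of motor axons.

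The source was hind limb muscle (tibialis anterior together with gastrocnemius) of 2-month-old males. All mice, controls included, carried the S100GFP-tg reporter, in which the S100B promoter drives enhanced GFP to mark Schwann cells (SCs). The genotypes were S100GFPtg, called WT here, and S100GFPtg Sod1-/-, called Sod1KO, which lacks superoxide dismutase 1 and is used as a model of partial muscle denervation without injury. For each genotype the tissue of 4 mice was pooled, live cells were sorted by GFP, and the positive and the negative cells each gave 1 droplet-based single-cell RNA-sequencing library. The groups were therefore WT GFP+, Sod1KO GFP+, WT GFP- and Sod1KO GFP-, with 1 library in each. With 1 library per group no test between genotypes was possible and no p-value is given. The intervals below are 95% intervals that cover counting error alone, not the variation between mice.

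The libraries held between 2052 and 7267 barcodes and between 21959719 and 105954116 unique molecular identifiers (UMIs, each 1 captured RNA molecule). After filtering, the GFP+ sort kept 4557 WT and 5925 Sod1KO cells, and the GFP- sort 1638 WT and 5143 Sod1KO cells. Median depth ran from 8019.5 UMIs per cell in WT GFP- to 14668 in Sod1KO GFP-. Cells were clustered without the 10 IGF genes and named from marker lists, and "-like" marks a name given in this way. WT GFP- stood apart, since 54.9% of its cells stayed in clusters without a name, against 17.7% in either GFP+ library and 30.0% in Sod1KO GFP-. Pairs of libraries shared between 1 and 13 cell barcodes. The Sod1 gene itself did not separate the genotypes in these 3′ counts. Its level was 91.0 CPM in WT and 98.2 CPM in Sod1KO for GFP+, and 123 CPM in WT and 113 CPM in Sod1KO for GFP-, where CPM is the gene's UMIs scaled to a fixed total of UMIs (counts per 1e6). The genotype is thus taken from the labels, and "Sod1KO" below means the library labelled so.

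A level below is the CPM of a gene over all UMIs of a class, and levels are read across classes and libraries, not between genes. A ratio is the log2 of the Sod1KO level over the WT level within a class and sort, computed where both libraries held at least 50 cells of the class. Ratios were counted where a gene had at least 20 UMIs in the 2 libraries together, and "past 2-fold" means a ratio of at least 1 in size. No value here can separate a change per cell from a change in which cells a class holds. For that reason the levels within single clusters are given beside the main ratios.

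Igf1 was a product of stromal cells and macrophages. Mesenchymal-like cells (Pdgfra, Dpt, Lum) held the highest level in 3 of the 4 libraries, at 718 CPM (WT) and 992 CPM (Sod1KO) in the GFP+ sort and 762 CPM in Sod1KO GFP-. In WT GFP- they stood at 403 CPM, next to macrophage-like cells at 443, and the intervals of these 2 values overlapped. Tenocyte-like cells (Tnmd, Scx, Fmod) lay close to one another, at 408 CPM in both GFP+ libraries and 439.8 CPM in Sod1KO GFP-. Macrophage-like cells stood at 287 CPM (WT) and 274 CPM (Sod1KO) in the GFP+ sort and 374 CPM in Sod1KO GFP-. Smooth muscle-like cells and both Schwann-like classes were near zero, between 0 and 7.28 CPM. Within the mesenchymal-like cells a cluster led by Cxcl14 and Hsd11b1 carried 1764 CPM of Igf1 in WT GFP+ and 1645 in Sod1KO GFP+, above every other mesenchymal-like cluster of those libraries.

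Igf2 was a product of the vessel wall. In WT GFP+ its highest level was 95.5 CPM in pericyte-like cells (Rgs5, Kcnj8), with 71.5 in smooth muscle-like and 59.9 in endothelial-like cells, and in WT GFP- the order was the same at 115, 109 and 92.0 CPM. The pericyte-like and smooth muscle-like intervals overlapped in both WT libraries. In Sod1KO GFP- these 3 classes stood at 71.9, 54.8 and 40.5 CPM, and in Sod1KO GFP+ at 29.9, 31.6 and 44.6 CPM. The macrophage-like, tenocyte-like and Schwann-like classes ranged from 0 to 0.906 CPM, and satellite-like cells from 18.4 to 31.3 CPM. Endothelial-like cells were far from uniform. The cluster led by the arterial genes Gkn3, Gja5 and Sema3g stood at 259.7 CPM (WT) and 221 CPM (Sod1KO) in the GFP+ sort, then 329 CPM (WT) and 144 CPM (Sod1KO) in the GFP- sort. The capillary-type cluster led by Car4 and Gpihbp1 stood at 8.48, 17.3, 29.0 and 15.8 CPM in the same order.

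**Figure D1:**
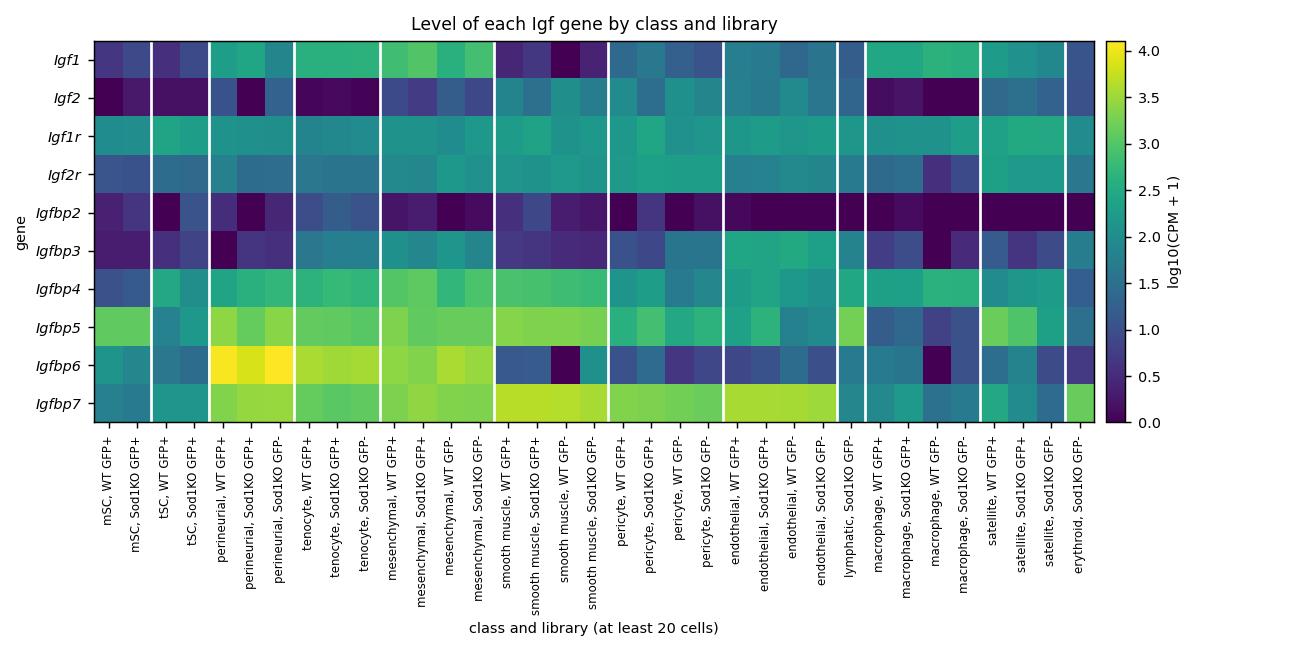
Level of each IGF gene (rows) in each class and library with at least 20 cells (columns), as log10(CPM + 1) by color. Igf1 is brightest in mesenchymal columns (up to 992 CPM), Igf2 in pericyte, smooth muscle and endothelial columns (up to 115 CPM), Igfbp3 in endothelial columns and Igfbp6 in perineurial columns (up to 12850.2 CPM), while Igfbp2 is dark throughout (at most 15.4 CPM).

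The receptors were spread more widely. Igf1r, the signalling receptor, was detected in every class, from 69.3 CPM in tenocyte-like cells of WT GFP+ to 310.1 in satellite-like cells of Sod1KO GFP+. In WT GFP+ its highest level was in the tSC-like cells (nonmyelinating and terminal Schwann cell markers such as Ngfr, Bche and Ajap1), at 247 CPM, with satellite-like cells next at 226 and an overlapping interval. Myelinating Schwann-like cells (mSC-like: Mag, Prx, Ncmap) had 99.1 CPM in WT GFP+ and 104 in Sod1KO GFP+, below the tSC-like cells of both libraries. The tSC-like class was 8.25% of all UMIs in WT GFP+ and held 16.0% of the Igf1r UMIs, and in Sod1KO GFP+ it was 12.1% of all UMIs and held 18.9% of those of Igf1r. Igf2r, the clearance receptor, was highest in pericyte-like cells (159 to 206 CPM) and satellite-like cells (166 to 213 CPM), followed by smooth muscle-like cells at 124 to 162 CPM. Its lowest levels were in mSC-like cells (11.1 CPM in WT GFP+, 9.96 in Sod1KO GFP+) and in macrophage-like cells of the GFP- libraries. The latter had 2.77 CPM (1 UMI) in WT and 7.45 CPM (7 UMIs, 6 of them in 1 cell) in Sod1KO. Their intervals (0.07 to 15.4 and 3.00 to 15.4 CPM) overlapped those of the mSC-like cells. Macrophage-like cells of the GFP+ libraries stood higher, at 25.7 CPM in WT and 29.0 in Sod1KO.

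The binding proteins led in different classes. Igfbp3, the main carrier of IGFs in blood, was led by endothelial-like cells in all 4 libraries (205 to 316 CPM), and inside that class by the Gkn3 and Gja5 cluster, at 562 to 737 CPM. Igfbp4, an inhibitor of IGF action, was highest in mesenchymal-like cells (527 to 1249 CPM) and smooth muscle-like cells (599 to 856 CPM), with smooth muscle first in WT GFP- and mesenchymal first in the other libraries. Igfbp5, a matrix-binding member, was high in smooth muscle-like cells at 1872 to 2340.4 CPM, in perineurial-like cells (Itgb4, Cldn1, Lypd2) at 1349 to 2556 CPM, in mesenchymal-like cells at 1284 to 2076 CPM, and in mSC-like cells at 1287 CPM in WT GFP+ and 1283 in Sod1KO GFP+. Tenocyte-like cells stood near the mSC-like level, at 1328 CPM in WT GFP+ and 1281 in Sod1KO GFP+. Lymphatic-like cells had 1847 CPM over all libraries, and the smooth muscle-like cluster led by Actg2 reached 4828 CPM over all libraries. Igfbp6, which prefers IGF2 to IGF1, was a gene of perineurial-like cells at 11831 CPM (WT) and 7119 CPM (Sod1KO) in the GFP+ sort and 12850.2 CPM in Sod1KO GFP-. WT GFP- had 6 perineurial-like cells and no level for them. Tenocyte-like cells followed at 3369 to 3807 CPM, and mesenchymal-like cells stood at 2131 to 3906 CPM. The mesenchymal-like value of 3906 CPM was the highest of any class with a level in WT GFP-, where tenocyte-like cells were also too few. Igfbp7, a basement membrane protein with low affinity for IGFs, was led by smooth muscle-like cells (3673 to 4618 CPM) and then endothelial-like cells (3189 to 3768 CPM) in all 4 libraries. Igfbp2, a member that can hold back or aid IGF action, stayed low everywhere, with its highest level of 15.4 CPM in tenocyte-like cells of Sod1KO GFP+.

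Shares of cells gave a similar picture at equal depth. Cells were thinned to 1000 UMIs each, and shallower cells were left out: 63 of 606 WT and 56 of 1111 Sod1KO mesenchymal-like cells of the GFP+ sort, 7 of 48 Sod1KO GFP+ pericyte-like cells, 18 of 856 Sod1KO GFP- mesenchymal-like cells, and 3 or fewer in each other class and library. Igfbp6 was then found in 100% of perineurial-like cells of both GFP+ libraries (42 and 89 cells), against 0.654% and 1.67% of endothelial-like cells. Igfbp5 was found in 60.2% of WT mSC-like cells of the GFP+ sort (95% interval 57.2% to 63.1%) and in 52.9% of the Sod1KO ones (49.0% to 56.8%), against 1.52% and 1.93% of macrophage-like cells, a background level. Unthinned, the mSC-like shares came to 89.6% and 82.7%, from cells with a median of 6237.5 (WT) and 6118 (Sod1KO) UMIs, and macrophage-like cells had a median of 17443 and 13559.5 UMIs. Igf2 was found in 6.38% of WT and 3.38% of Sod1KO smooth muscle-like cells of the GFP+ sort (49.6% and 29.4% unthinned), and in 0 of 132 and 0 of 207 macrophage-like cells, which allows up to 2.76% and 1.77% by exact binomial intervals.

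**Figure D2:**
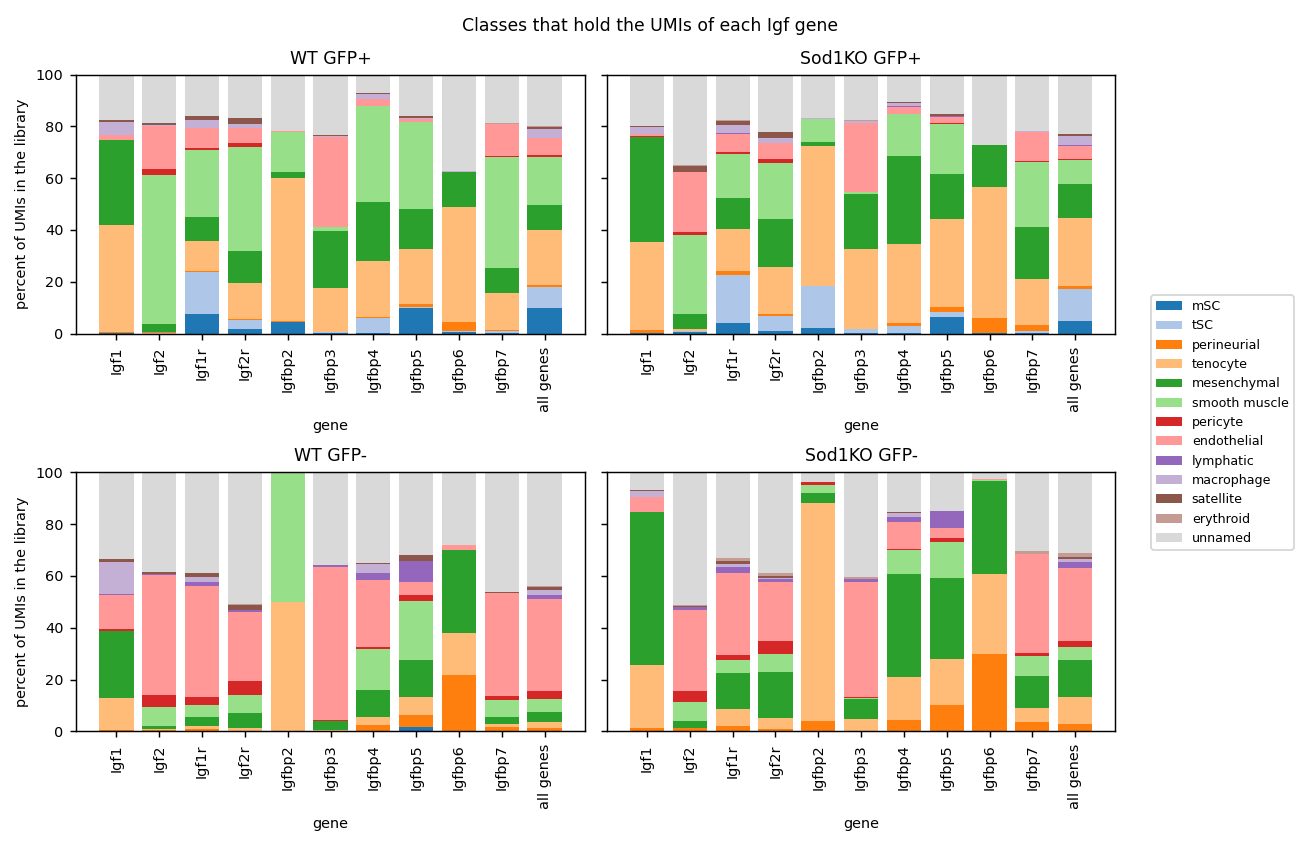
Percent of the UMIs of each IGF gene held by each class, in 1 panel per library, with the share of all genes as the last bar. Smooth muscle-like cells held 57.6% of Igf2 UMIs and 18.8% of all UMIs in WT GFP+, and 30.5% and 9.42% in Sod1KO GFP+. The Igfbp2 bar of WT GFP- rests on 2 UMIs.

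Between the genotypes, 62 ratios of IGF genes could be counted over 7 classes of the GFP+ sort, and 9 were past 2-fold, with 7 higher and 2 lower in Sod1KO. In the GFP- sort 26 ratios over 3 classes gave 3 past 2-fold, all lower in Sod1KO. The median ratio of the IGF genes was 0.00 in GFP+ and -0.09 in GFP-, and the medians over all counted genes of a class lay between -0.05 and 0.05. In tSC-like cells 5 of 9 IGF genes were past 2-fold, while 11.4% of all counted genes were. In mSC-like cells it was 1 of 8 against 4.02%, in smooth muscle-like cells 2 of 10 against 5.16%, and in GFP+ endothelial-like cells 1 of 9 against 4.68%. In tenocyte-like cells (0 of 9 against 4.68%), GFP+ mesenchymal-like cells (0 of 9 against 6.25%) and macrophage-like cells (0 of 8 against 7.23%) no IGF gene was past 2-fold. In the GFP- sort the counts were 1 of 9 in mesenchymal-like cells against 13.2%, 0 of 8 in pericyte-like cells against 9.18% and 2 of 9 in endothelial-like cells against 9.12%. A count of 1 or 2 among 8 to 10 genes is too small to be set apart from these backgrounds.

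**Figure D3:**
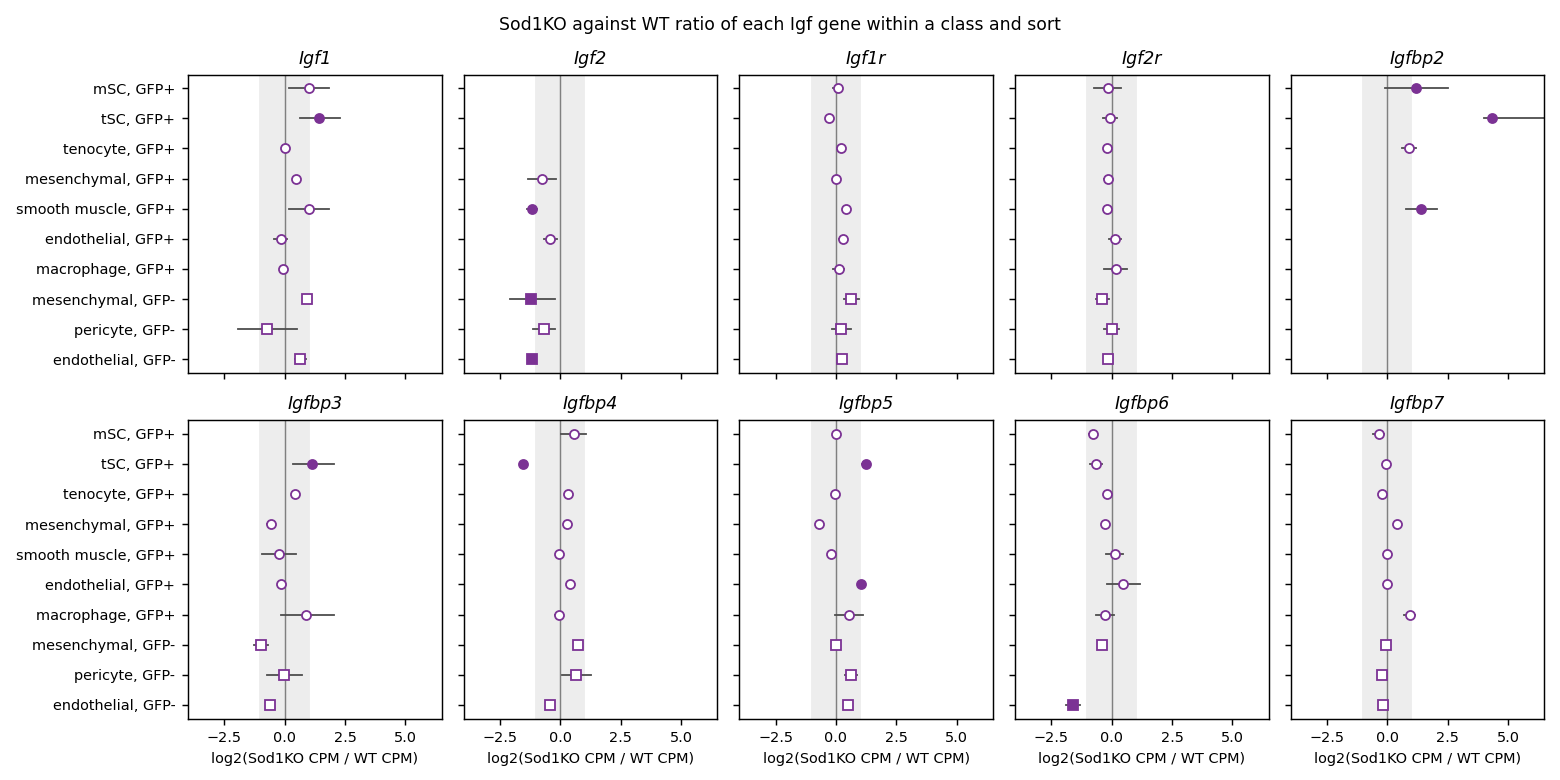
Log2 ratio of the Sod1KO level over the WT level for each IGF gene, by class and sort, with exact 95% intervals for counting error (clipped at the plot edges). Circles are GFP+, squares GFP-, filled symbols are past 2-fold, and the grey band spans 2-fold either way. Igf2 lies left of 0 in all 6 of its comparisons and Igfbp2 right of 0 in all 4.

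Igf2 was lower in Sod1KO in each of the 6 comparisons where it could be counted. In smooth muscle-like cells of the GFP+ sort its level was 71.5 CPM (961 UMIs) in WT and 31.6 CPM (267 UMIs) in Sod1KO, a ratio of -1.18 (-1.38 to -0.98). The larger smooth muscle-like cluster, led by Pln and Myh11, went from 74.9 to 32.7 CPM, with Igf2 UMIs in 51.8% of its WT cells and 30.2% of its Sod1KO cells. Taking out the cell with the most Igf2 UMIs in each library left this cluster at -1.24. The smaller Actg2 cluster stood at 28.9 and 24.5 CPM, a ratio of -0.24 (-1.05 to 0.57). Markers of smooth muscle summed to 46358 CPM in WT and 45966 in Sod1KO in the class, while the mesenchymal markers in it summed to 67.8 and 191 CPM, and their part in the ratio was not tested.

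In endothelial-like cells of the GFP- sort Igf2 stood at 92.0 CPM (654 UMIs) in WT and 40.5 CPM (944 UMIs) in Sod1KO, a ratio of -1.18 (-1.33 to -1.04). Both main clusters were lower there, with ratios of -1.19 in the Gkn3 and Gja5 cluster and -0.88 in the Car4 cluster. In that arterial-type cluster the summed smooth muscle markers also went from 532 to 170.1 CPM and the pericyte markers from 2216 to 1326 CPM. Perineurial markers there went from 135 to 43.0 CPM (3 of 5 lower), while erythroid markers went from 154 to 4649 CPM (4 of 4 higher). None of these lists was tested as a part of the ratio. In the GFP+ sort the class went from 59.9 to 44.6 CPM, a ratio of -0.42 (-0.69 to -0.16). There the clusters parted, since the Gkn3 and Gja5 cluster gave -0.23 (-0.54 to 0.07) and the Car4 cluster 1.03 (0.13 to 1.98) from 17 and 30 UMIs.

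Igf2 in pericyte-like cells of the GFP- sort went from 115 to 71.9 CPM, a ratio of -0.68 (-1.11 to -0.24). In mesenchymal-like cells it was low, at 15.5 CPM (13 UMIs) in WT GFP- and 6.69 CPM (79 UMIs) in Sod1KO GFP-, a ratio of -1.21 (-2.07 to -0.24). The endothelial markers in the same cells summed to 604 CPM in WT and 110.4 in Sod1KO, with 9 of 10 past 2-fold lower. Pericyte markers there summed to 743 and 475 CPM (6 of 9 lower), and smooth muscle markers to 80.8 and 320 CPM (2 of 7 higher). The part of these lists was not tested. Of the 68 WT cells here, 25 formed a cluster that held 1 cell of the other libraries, and without it too few WT cells were left for a ratio. In GFP+ mesenchymal-like cells the ratio was -0.76 from 50 UMIs in each library, with single clusters between -1.95 and 0.92. Summed over whole libraries Igf2 went from 23.3 to 9.78 CPM in GFP+ and from 70.9 to 36.8 CPM in GFP-. These sums mix level with composition, since the smooth muscle-like share of all GFP+ UMIs was 18.8% (WT) and 9.42% (Sod1KO), and the endothelial-like share of all GFP- UMIs 35.6% (WT) and 28.4% (Sod1KO).

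**Figure D4:**
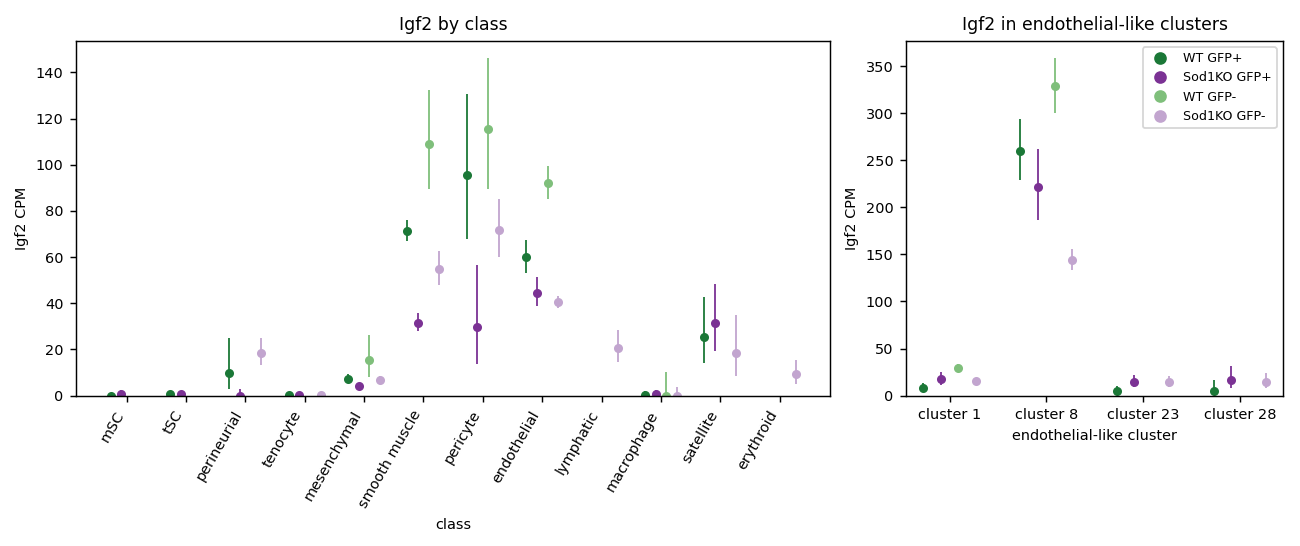
Igf2 level in CPM by class (left) and by endothelial-like cluster (right) in each library, with exact Poisson 95% intervals. Smooth muscle, pericyte and endothelial points of WT lie above those of Sod1KO in the same sort, and cluster 8 (Gkn3, Gja5, Sema3g) lies far above clusters 1, 23 and 28.

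Igf1 was higher in Sod1KO in 4 of 7 GFP+ classes, at 0.00 in tenocyte-like cells, and higher in 2 of 3 GFP- classes, counting ratios of any size. Among these GFP+ classes, mSC-like, tSC-like and smooth muscle-like levels lay below what free RNA at 5% of a library's UMIs would give. That level is 10.5 CPM in WT GFP+ and 15.9 in Sod1KO GFP+. Smooth muscle-like cells went from 1.79 CPM (24 UMIs) to 3.56 CPM (30 UMIs), a ratio of 0.99 (0.17 to 1.83). Over whole libraries, where composition enters too, Igf1 went from 210.5 to 318 CPM in GFP+ (0.60) and from 64.9 to 186 CPM in GFP- (1.52). In mesenchymal-like cells it went from 718 to 992 CPM in GFP+, a ratio of 0.47 (0.42 to 0.52), and from 403 to 762 CPM in GFP-, a ratio of 0.92 (0.76 to 1.08). The GFP- ratio compared 68 WT with 856 Sod1KO cells. Of these WT cells 25 formed a cluster of 26 cells in all, and without it too few were left for a ratio. Endothelial markers in the GFP- cells summed to 604 CPM in WT and 110.4 in Sod1KO (9 of 10 lower). Smooth muscle markers summed to 80.8 and 320 CPM (2 of 7 higher), and the part of either list was not tested. Inside the GFP+ mesenchymal-like cells the cluster led by Cxcl13 and Pi16 gave 0.65, the cluster led by Inmt and Gdf10 0.41 and the cluster led by Myoc and Fst 0.40, while the Cxcl14 and Hsd11b1 cluster gave -0.10. Other markers moved in the same GFP+ mesenchymal-like cells, and their part was not tested: smooth muscle markers summed to 102 CPM in WT and 271 in Sod1KO (5 of 6 counted past 2-fold higher), perineurial markers to 43.9 and 109.5 (5 of 8 higher), erythroid markers to 13.3 and 1048 (4 of 4 higher) and cycling markers to 2.17 and 22.0 (4 of 5 higher). The Igf1-rich Cxcl14 cluster made up 80 of the 606 WT cells and 321 of the 1111 Sod1KO cells. Tenocyte-like cells gave 0.00 (-0.05 to 0.05), and macrophage-like cells gave -0.07 (-0.21 to 0.08).

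In the Schwann-like classes Igf1 was low in both genotypes. If 5% of a library's UMIs were free RNA in each class, they would add 10.5 CPM of Igf1 in WT GFP+ and 15.9 in Sod1KO GFP+. The tSC-like cells had 2.71 CPM (16 UMIs) and 7.28 CPM (79 UMIs), a ratio of 1.43 (0.64 to 2.30), with 3 Sod1KO cells holding at least 50% of those UMIs. With doublets kept this ratio turned to -0.90. The mSC-like cells had 3.52 CPM (25 UMIs) and 7.02 CPM (31 UMIs), a ratio of 0.998 (0.19 to 1.82), just short of 2-fold.

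Neither receptor was past 2-fold in any class. Igf1r was higher in Sod1KO in 6 of 7 GFP+ classes and 3 of 3 GFP- classes, with ratios from -0.29 to 0.63, counting any size. The exception was the tSC-like class, at 247 CPM (1462 UMIs) in WT and 203 CPM (2202 UMIs) in Sod1KO, a ratio of -0.29 (-0.38 to -0.19). The genotypes filled that class from different clusters, whose Igf1r levels are given below. Smooth muscle-like cells went from 177 to 233 CPM, a ratio of 0.40 (0.31 to 0.48). Igf2r was lower in 5 of 7 GFP+ classes and 3 of 3 GFP- classes, with ratios from -0.40 to 0.18, pericyte-like cells of the GFP- sort at 0.00 when rounded. Its largest difference was in GFP- mesenchymal-like cells, from 155 to 117 CPM (-0.40, -0.66 to -0.13).

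The tSC-like cells held 5 of the 9 ratios past 2-fold in the GFP+ sort, and the 2 genotypes filled this class from different clusters. Of 379 WT cells, 307 were in cluster 12, led by Unc80, Bche and Ajap1, and 33 were in cluster 10, led by Ucn2, Olig1, Btc and Ngfr. Of 885 Sod1KO cells, 218 were in cluster 12 and 546 in cluster 10. Cluster 33, with Gfra3 and Scn7a, held 27 and 33 cells, and cluster 32 held 12 and 88. Ratios over the whole class therefore compare mostly cluster 12 of WT with mostly cluster 10 of Sod1KO. Other markers moved with this too, since macrophage markers in the class summed to 4723 CPM in WT and 446 in Sod1KO (1 of 4 counted macrophage markers past 2-fold lower) and erythroid markers to 15.9 and 1603 CPM (5 of 5 higher). Cycling markers summed to 3.89 and 26.5 CPM (5 of 5 higher), lymphatic markers to 31.3 and 241 CPM (1 of 2 higher) and mSC markers to 2940.4 and 3024 CPM (5 of 10 higher), and the part of these lists was not tested. The tSC markers themselves summed to 3666 CPM in WT and 2156 CPM in Sod1KO.

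Igfbp4 in tSC-like cells went from 305 CPM (1800 UMIs) in WT to 106 CPM (1146 UMIs) in Sod1KO, a ratio of -1.53 (-1.64 to -1.42). After thinning it was found in 23.3% of WT and 7.13% of Sod1KO cells, against 0.837% and 1.37% of mSC-like cells. Most of that step lay between clusters. Cluster 12 carried 331 CPM in WT and 281 in Sod1KO, a ratio of -0.24 (-0.35 to -0.12), while cluster 10 carried 56.4 CPM (14 UMIs) and 31.1 CPM (212 UMIs). Without clusters that 1 library filled to over 80% the class ratio was -0.30. Igfbp4 was thus a gene of the Bche and Ajap1 cluster in both genotypes.

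Igfbp5 in tSC-like cells went the other way, from 64.6 CPM (382 UMIs) to 152 CPM (1652 UMIs), a ratio of 1.24 (1.07 to 1.40). Inside cluster 12 the direction was reversed, with 65.4 CPM in WT and 17.7 in Sod1KO, a ratio of -1.88 (-2.31 to -1.48). That reversal came with 2 WT cells that held at least 50% of the UMIs, and 11.1% of WT and 11.0% of Sod1KO cells in the cluster had a UMI. Without the highest cell of each library it was -1.71. In cluster 10 the level was 12.1 CPM (3 UMIs) in WT and 224 CPM (1526 UMIs) in Sod1KO. The WT level of the class was at the 65.4 CPM that 5% of free RNA would give, the Sod1KO level above its 49.2 CPM. In mSC-like cells, where Igfbp5 was abundant, the levels of 1287 and 1283 CPM gave a ratio of 0.00 (-0.05 to 0.04).

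Igfbp2 was not seen in WT tSC-like cells (0 UMIs in 379 cells) and had 110 UMIs, 10.1 CPM, in the Sod1KO cells. Against a floor of 3 UMIs for the WT library this is at least 19.9-fold higher, and at least 15.9-fold at the low end of the counting interval. Cluster 10 held 107 of the 110 UMIs, at 15.7 CPM, and its 33 WT cells with 0 UMIs allow up to 14.9 CPM. The UMIs were in 2.15% of Sod1KO tSC-like cells, and 4 cells held at least 50% of them. Igfbp2 was higher in Sod1KO in all 4 GFP+ classes with a ratio. Smooth muscle-like cells went from 2.60 CPM (35 UMIs) to 6.87 CPM (58 UMIs), a ratio of 1.40 (0.77 to 2.05), with 3 cells holding at least 50% of the UMIs in each library. Tenocyte-like cells went from 8.24 CPM (125 UMIs) to 15.4 CPM (362 UMIs), a ratio of 0.90 (0.60 to 1.21). The mSC-like ratio of 1.17 (-0.10 to 2.50) rested on 10 and 14 UMIs.

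Igfbp3 in tSC-like cells stood at 2.71 CPM (16 UMIs) and 5.99 CPM (65 UMIs), a ratio of 1.15 (0.34 to 2.03). The WT level was near the 2.55 CPM of 5% free RNA and the Sod1KO level above its 2.37 CPM. With free RNA subtracted the WT count fell under 3 UMIs and was set to that floor, so the resulting ratio of 2.83 rests on the floor. Igfbp6 in tSC-like cells, at 43.5 and 27.7 CPM, lay below its free RNA level of 91.2 and 87.4 CPM. Igfbp7 did not differ over the class, at 142 and 138 CPM (ratio -0.05, -0.17 to 0.07), but it marked the Gfra3 and Scn7a cluster, with 1598 CPM in WT and 1908 in Sod1KO against at most 133 CPM in the other tSC-like clusters. Igf1r also varied between these clusters, at 239 CPM in cluster 12 and 163 in cluster 10 over all libraries. Its class ratio of -0.29 thus mixes level with the clusters that each genotype filled. In Sod1KO GFP+ it was 539 CPM in cluster 32, 333 in cluster 33, 228 in cluster 12 and 163 in cluster 10, and the first and last of these intervals (474 to 610 and 153 to 173 CPM) lay far apart.

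**Figure D5:**
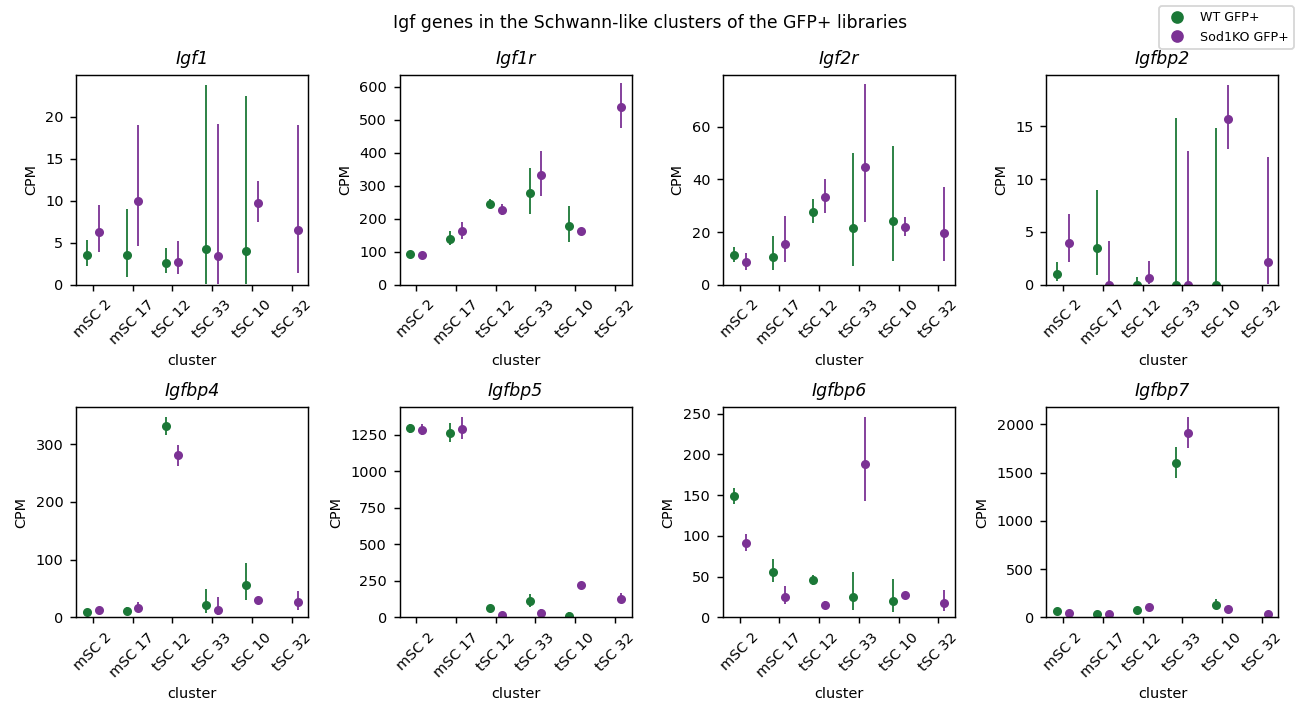
Level in CPM of 8 IGF genes in the Schwann-like clusters of the GFP+ libraries, WT in green and Sod1KO in purple, with exact Poisson 95% intervals; cluster 32 has no WT point because it held 12 WT cells. Igfbp4 peaks in cluster 12 and Igfbp7 in cluster 33 in both genotypes, Igfbp5 is high in both mSC-like clusters, and Igfbp2 stands highest in Sod1KO cells of cluster 10 (15.7 CPM).

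Igfbp5 was also past 2-fold higher in GFP+ endothelial-like cells, going from 222 CPM (1031 UMIs) to 459 CPM (2087 UMIs), a ratio of 1.05 (0.94 to 1.16). Nearly all of these UMIs sat in 1 cluster, led by Esm1, Plvap and Exoc3l2. It held 937 UMIs in 39 WT cells (763 CPM, 714 to 813) and 2009 UMIs in 66 Sod1KO cells (1253 CPM, 1198 to 1309). The Gkn3 and Gja5 cluster had 21.6 and 15.9 CPM and the Car4 cluster 26.9 and 31.8 CPM. In the class erythroid markers summed to 2497 and 8216 CPM and smooth muscle markers to 660.1 and 1051 CPM, and their part was not tested. At a coarser clustering (Leiden resolution 0.5) the class gave -0.053. In GFP- endothelial-like cells Igfbp5 was lower in both main clusters. The ratios were -1.67 (73.7 to 23.2 CPM) in the Gkn3 and Gja5 cluster and -1.01 (35.6 to 17.7 CPM) in the Car4 cluster, while the whole class gave 0.51 (61.9 to 88.1 CPM). The Esm1 and Plvap cluster held 9 of the WT and 70 of the Sod1KO cells there. Both Sod1KO cluster levels lay below the 32.5 CPM of 5% free RNA. In the Car4 cluster 1 WT cell held 44 of 185 UMIs, and without the highest cell of each library the ratio was -0.69. Markers that moved in the Gkn3 and Gja5 cluster, given with Igf2, were not tested as a part of its ratio.

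Mesenchymal-like cells of the GFP+ sort moved against the class ratio of the GFP+ endothelial-like cells. Igfbp5 there went from 2076 CPM (14318 UMIs) to 1284 CPM (15021 UMIs), a ratio of -0.69 (-0.73 to -0.66), within 2-fold. Of its clusters the one led by Cxcl13 and Pi16 gave -0.50 (3374 to 2392 CPM), the one led by Inmt and Gdf10 -0.47, the one led by Myoc and Fst -0.21 and the Cxcl14 and Hsd11b1 cluster 0.82 (207 to 365 CPM). Each is nearer to 0 than the class or above it, and the Cxcl14 cluster, low in Igfbp5, held 80 of 606 WT and 321 of 1111 Sod1KO cells. The smooth muscle, perineurial and erythroid markers that moved in these cells, given with Igf1, were not tested as a part of this ratio. In the GFP- sort the ratio was 0.00 (1423 and 1419.6 CPM).

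Igfbp6 was past 2-fold in 1 class, the GFP- endothelial-like cells, at 27.4 CPM (195 UMIs) in WT and 8.96 CPM (209 UMIs) in Sod1KO, a ratio of -1.61 (-1.90 to -1.33). The WT level was close to the 25.7 CPM of 5% free RNA, and the Sod1KO level lay below its 59.9 CPM. The 2 main clusters went opposite ways, with -3.35 in the Gkn3 and Gja5 cluster (119 to 11.7 CPM) and 1.73 in the Car4 cluster (2.31 to 7.67 CPM). With doublets kept the class gave 0.15. Perineurial markers in the first of these summed to 135 CPM in WT and 43.0 in Sod1KO, which was not tested. In mSC-like cells Igfbp6 went from 134 to 78.3 CPM (-0.77, -0.95 to -0.59), and this value too lies near the free RNA level.

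The remaining binding protein ratios were within 2-fold. Igfbp3 was lower in all 3 GFP- classes, with -0.99 (-1.26 to -0.70) in mesenchymal-like cells, -0.63 (-0.70 to -0.55) in endothelial-like cells and -0.04 (-0.73 to 0.71) in pericyte-like cells. The endothelial clusters parted, with -1.13 (226 to 103 CPM) in the Car4 cluster and -0.09 (706 to 665 CPM) in the Gkn3 and Gja5 cluster. The mesenchymal-like ratio came with the endothelial markers of those cells at 604 CPM in WT and 110.4 in Sod1KO (9 of 10 lower), whose part was not tested. Igfbp4 was higher in GFP- mesenchymal-like cells, from 527 to 877 CPM (0.74, 0.60 to 0.88), and lower in GFP- endothelial-like cells (-0.44). The mesenchymal-like value compared 68 WT with 856 Sod1KO cells, and the marker shift in those cells was not tested as a part of it. Igfbp7 gave 0.93 (0.70 to 1.16) in macrophage-like cells, from 85.0 to 162 CPM, around its free RNA level of 101 and 86.6 CPM. There 3 WT and 2 Sod1KO cells held at least 50% of the UMIs, and 1 Sod1KO cell held 146 of 496. Tenocyte markers in these cells summed to 416 CPM in WT and 66.8 in Sod1KO (8 of 8 lower), erythroid markers to 12.8 and 4324 (4 of 4 higher), myofibre markers to 26.4 and 87.0 (5 of 5 higher), endothelial markers to 232 and 285 (3 of 10 higher) and pericyte markers to 194 and 214 (3 of 9 higher), and their part was not tested. In smooth muscle-like and GFP+ endothelial-like cells, where Igfbp7 was abundant, its ratios were 0.01 and 0.00.

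Perineurial-like and satellite-like cells were too few in WT for a ratio, and their levels are given alone. In perineurial-like cells of the GFP+ sort (42 WT and 89 Sod1KO cells) Igfbp5 stood at 2556 CPM (2403 to 2716) in WT and 1349 CPM (1286 to 1416) in Sod1KO, and Igf1 at 194 and 267 CPM. Igfbp4 there stood at 250.4 and 399 CPM. In satellite-like cells, the muscle stem cells marked by Pax7 and Calcr (38 and 58 cells), Igfbp5 stood at 1499 CPM (1398 to 1605) and 960.1 CPM (886 to 1039), with UMIs in 81.6% and 60.3% of cells. Igf1r in the same cells stood at 226 CPM (188 to 269) and 310.1 CPM (268 to 356), and these intervals just overlapped. Sod1KO GFP- had 39 satellite-like cells, with 218 CPM of Igfbp5 and 302 CPM of Igf1r, so that for Igfbp5 the 2 Sod1KO libraries differed more from each other than the GFP+ genotypes did.

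The sort itself went with some of these levels. In endothelial-like cells Igfbp5 was higher in GFP+ than in GFP- libraries, by 1.84 (1.68 to 2.01) on the log2 scale in WT and 2.38 (2.29 to 2.47) in Sod1KO. The Esm1 and Plvap cluster, rich in Igfbp5, held 66 of 299 GFP+ and 70 of 1584 GFP- endothelial-like cells of Sod1KO. Inside the Gkn3 and Gja5 cluster Igfbp5 was lower in GFP+ in both genotypes. The Car4 cluster had 26.9 CPM in GFP+ and 35.6 in GFP- for WT, and 31.8 and 17.7 for Sod1KO. The class ratios thus mix level with the clusters that each sort filled. Perineurial-like cells of Sod1KO had 1349 CPM of Igfbp5 in GFP+ and 2377 in GFP-, and 7119 and 12850.2 CPM of Igfbp6. Over whole libraries the GFP+ to GFP- ratio of Igf2 was -1.61 in WT and -1.91 in Sod1KO, and that of Igfbp3 was -1.90 and -1.47, while Schwann-like cells were nearly absent from the GFP- libraries (4 mSC-like cells in WT and 3 in Sod1KO).

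Another 31 genes of the IGF pathway were counted in the same way: further binding partners, proteases of the binding proteins and their inhibitors, the growth hormone receptor and its feedback genes, receptor adaptors and downstream kinases. In mSC-like cells 1 was past 2-fold higher and 1 lower in Sod1KO of 21 counted, beside 4.02% of all counted genes past 2-fold, and in tSC-like cells 2 were higher and 2 lower of 24, beside 11.4%. The other GFP+ classes had 1 or 0 in either direction of 20 to 27 genes, beside 4.68% to 7.23%. In the GFP- sort mesenchymal-like cells had 2 higher and 3 lower of 24 (13.2% of all genes), pericyte-like cells 1 lower of 18 (9.18%) and endothelial-like cells 0 of 24 (9.12%). Each count is of 5 genes or fewer, and nothing particular to the pathway is read from it.

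Of the pathway genes in tSC-like cells, Htra1, a secreted protease that cuts binding proteins, went from 771 to 277 CPM, a ratio of -1.48 (-1.54 to -1.41). Like Igfbp4 it belonged to cluster 12 in both genotypes, at 836 and 704 CPM, against 117 and 95.8 CPM in cluster 10. Lrp1, an endocytic receptor that also binds IGFBP3, went from 290.4 to 134 CPM (-1.11, -1.21 to -1.01), with 312 and 288 CPM in cluster 12 and 64.5 and 69.3 CPM in cluster 10. Igf2bp2, an RNA-binding protein of Igf2 mRNA, went from 1.86 CPM (11 UMIs) to 34.7 CPM (377 UMIs), a ratio of 4.22 (3.37 to 5.24). It was at 42.8 CPM in cluster 10 and 138 CPM in cluster 32 of Sod1KO, and also went from 1.67 to 5.81 CPM inside cluster 12. Stc2, an inhibitor of the IGFBP proteases Pappa and Pappa2, had 1 UMI in WT and 221 in Sod1KO, a ratio of 6.91 (4.42 to 12.2), with 206 UMIs in cluster 10, where 5 cells held at least 50% of them.

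In mSC-like cells Igf2bp2 went from 9.14 CPM (65 UMIs) to 23.8 CPM (105 UMIs), a ratio of 1.38 (0.92 to 1.85), and it was higher in both mSC-like clusters (8.54 to 23.9 CPM and 12.3 to 23.4 CPM). Cish, a feedback inhibitor of growth hormone signalling, had 21 UMIs in WT and 3 in Sod1KO, a ratio of -2.12 (-4.51 to -0.38). Outside the Schwann-like classes the pathway genes past 2-fold were H19, Pappa2, Irs1, Stc1, Cish, Igf2bp3, Cd93 and Socs2, named here because their values passed. Pappa2, a protease of IGFBP3 and IGFBP5, went from 11.0 CPM (148 UMIs) to 51.3 CPM (433 UMIs) in smooth muscle-like cells, a ratio of 2.22 (1.95 to 2.50). In mesenchymal-like cells it went the other way, from 17.8 to 7.62 CPM in GFP- (-1.23, -2.02 to -0.33) and from 6.23 to 3.33 CPM in GFP+ (-0.90, -1.57 to -0.24). H19, the imprinted neighbor of Igf2, went from 13.9 to 49.5 CPM in GFP+ mesenchymal-like cells, where 3 cells of each library held at least 50% of the UMIs, and from 2.16 CPM (29 UMIs) to 0.474 CPM (4 UMIs) in smooth muscle-like cells. In GFP- mesenchymal-like cells it had 1 UMI in WT and 450 in Sod1KO (5.00, 2.52 to 10.3), with 4 Sod1KO cells holding at least 50% of them.

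On the genome (GRCm38.p6) Igf2 lies on chromosome 7 from 142650768 to 142666816 and Igf1 on chromosome 10 from 87858265 to 87937047. Igfbp2 (chromosome 1, 72824480 to 72852474) and Igfbp5 (chromosome 1, 72858065 to 72874865) are neighbors, with 5590 bases between them. Both were higher over the Sod1KO tSC-like class, and both were highest there in cluster 10. In smooth muscle-like cells Igfbp2 was higher and Igfbp5 gave -0.20, so the neighbors did not move together in every class.

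The genes with the pattern most like each IGF gene were sought over 28 class-by-library units from 12 classes, by Pearson correlation of log2(CPM + 1) among 14876 genes. Units of 1 library share depth and free RNA, so these values describe the pattern and carry no p. Igf1 was most like Adcy7 (0.89) and Steap3 (0.89), and Igf2 was most like Phkg1 (0.92) and Tspan12 (0.91). For the receptors the closest were Slc4a7 (0.78) and Arid5b (0.76) for Igf1r, and Airn (0.88) and Mast4 (0.87) for Igf2r, where Airn is the antisense RNA that overlaps Igf2r. Igfbp6 had the closest partner of all, decorin (Dcn, 0.97), followed by 2810433D01Rik (0.95). Igfbp3 paired with Heg1 (0.93) and Npr1 (0.91), Igfbp7 with Meox2 (0.92) and Pitpnm3 (0.90), and Igfbp5 with Twsg1 (0.88) and Bace1 (0.87). Igfbp4 paired with Pon3 (0.85) and Smad3 (0.84), and Igfbp2 with Tnc (0.83) and 8030451A03Rik (0.81). Among the IGF genes themselves the highest correlation was between Igf2 and Igf2r (0.78) and the lowest between Igf1r and Igfbp6 (-0.49).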

How the data were processed

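The authors deposited raw UMI counts, genes by cell barcodes, made with Cell Ranger from 10x 3′ libraries and already reduced to barcodes that Cell Ranger called as cells. The matrix headers and the submitters' notes name Cell Ranger 7.1.0 and the notes name mm10. The study's methods name a later Cell Ranger and 2 builds, so coordinates are given from the RefSeq table of GRCm38.p6 for naming the place of a gene alone. Free RNA was not removed from the counts.

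From these counts, the study's limits (over 200 genes, under 10% of UMIs from the 13 mitochondrial genes) were applied to cells, and doublets were removed by scores against simulated doublets (0.8% per 1000 barcodes, 50 neighbors). Logged counts per 10000 UMIs, 2000 variable genes without the 10 IGF genes, 30 principal components, 20 neighbors and Leiden resolution 1 gave clusters over the 4 libraries together. The study's own tools for free RNA, doublets and integration were not used, so classes may differ from the study's. A cluster was named where at least 3 of its list's markers were above 20 CPM and 2-fold over the mean of other clusters, and stayed unnamed where another list led or mixed in. There were 21 lists, and these limits were set after a look at the clusters. Levels needed 20 cells and ratios 50 cells in both libraries. Levels carry exact Poisson and ratios exact conditional binomial 95% intervals, a count of 0 was set to 3 UMIs, and no ratio was taken where both counts were 3 or fewer or where the floor would turn its direction. Molecules of 1 cell are not independent, so intervals are too narrow for cells with many UMIs. The ratio code was tested on simulated data.

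The 10 genes, the pathway list of 31 genes and the marker lists were chosen with earlier results of these data known. Genes named were the 10 members, every pathway gene past 2-fold in a Schwann-like class of GFP+, and for each member the 2 genes of highest correlation among those with at least 200 UMIs. Named beyond that rule, after their values were seen, were the other pathway genes past 2-fold. Alternatives were a stricter filter (500 genes, 5%), doublets kept, 5% free RNA subtracted, median-of-ratios scaling, means of single-cell CPM, resolution 0.5, members allowed among the variable genes, clusters over 80% from 1 library left out, the highest cell left out, and 1.5-fold or no minimum for counts. Single clusters alone, and these without their highest cell, were chosen after seeing the data. The tools were leidenalg 0.10.2 with igraph 0.11.9 for clusters, scikit-learn 1.9.0 for neighbors, scipy 1.17.1 for intervals and matplotlib 3.10.9 for plots, with pandas 2.3.3 and numpy 2.4.6 under Python 3.11.15.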

Additional observations from a re-analysis of the deposited data

Results flagged for a closer look

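Igfbp5 went opposite ways in classes of the GFP+ sort. Its Sod1KO over WT log2 ratio was 1.24 in tSC-like cells and -0.69 in mesenchymal-like cells, a difference of 1.93, and it was -0.69 in mesenchymal-like and 1.05 in endothelial-like cells, a difference of -1.74. These differences were not tested, since each group was 1 library. The counting interval of the mesenchymal-like ratio lay apart from both others, and those of the tSC-like and endothelial-like ratios overlapped. The higher values rested on the Ucn2 and Btc cluster of the tSC-like cells and on the Esm1 and Plvap cluster of the endothelial-like cells.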

How the results depend on the processing

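No paired analysis was possible because each group was 1 library. The count of 7 GFP+ ratios past 2-fold higher in Sod1KO became 3 with clusters over 80% from 1 library left out and 12 at a limit of 1.5-fold, and the count of 2 lower became 5 with doublets kept and 6 at 1.5-fold. In GFP- the count higher went from 0 to 1 at Leiden resolution 0.5, 2 with the members allowed among the variable genes and 6 at 1.5-fold, and the 3 lower became 7 at 1.5-fold. Ratios that turned were Igf1 in tSC-like cells with doublets kept (-0.90), Igfbp5 in tSC-like cells without clusters over 80% from 1 library (-1.84) or in cluster 12 alone (-1.88), Igfbp5 in GFP+ endothelial-like cells at resolution 0.5 (-0.053) or in cluster 8 alone (-0.44), and Igfbp6 in GFP- endothelial-like cells with doublets kept (0.15) or in cluster 1 alone (1.73). Igfbp2 turned in smooth muscle-like cluster 26 alone (-0.064), and in mSC-like cluster 17 alone it gave -0.076 from 4 WT UMIs against a Sod1KO count of 0 set to 3, too few to read a direction. Beyond the change of cells that each setting makes, the cause was not tested.

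Igf2 stayed past 2-fold lower under all planned settings that gave a value in smooth muscle-like cells (-1.24 to -1.17), GFP- endothelial-like cells (-1.65 to -1.15) and GFP- mesenchymal-like cells (-1.78 to -1.08), and Igfbp2 past 2-fold higher in tSC-like cells (4.10 to 6.23). For Igfbp2 in tSC-like cells 8 settings gave a value. Without clusters over 80% from 1 library, which leaves out cluster 10, its UMIs were too few for a ratio. Igfbp4 in tSC-like cells passed under 8 of 9 settings and gave -0.30 without clusters over 80% from 1 library. Igfbp3 in tSC-like cells passed under 6 of 9 (0.19 to 2.83), Igfbp2 in smooth muscle-like cells under 8 of 9 (0.97 to 1.43) and Igfbp2 in mSC-like cells under 7 of 9 (0.60 to 2.77). The 2.83 of Igfbp3 came with free RNA subtracted, where the WT count was set to the floor of 3 UMIs. Another scaling shifted the ratios of a class by -0.08 to 0.05. The stricter filter gave 80 of the 88 ratios, and without clusters over 80% from 1 library GFP- mesenchymal-like cells had too few WT cells for a ratio. In mSC-like and tSC-like cells Igf2 had too few UMIs to count a ratio, and so did Igfbp3 in mSC-like cells.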

Other observations

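A cluster without a name, with both mSC markers and perineurial markers among its genes (Lgals7, Slc6a13, Cldn1, Moxd1), held 310 WT and 317 Sod1KO cells of the GFP+ sort and was rich in IGF genes. Igfbp6 stood at 7238 CPM in WT and 4415 in Sod1KO, a log2 ratio of -0.71 (-0.73 to -0.69), and Igfbp5 at 2205 and 1357 CPM, a ratio of -0.70. Igf1 went the other way, from 113 to 249 CPM, a ratio of 1.14 (1.01 to 1.27), with Igf1 UMIs in 64.2% of its WT cells and 81.7% of its Sod1KO cells. Igfbp4 also went up, from 139 to 289.6 CPM, a ratio of 1.06 (0.94 to 1.18). Taking out the highest cell of each library left Igf1 at 1.14 and Igfbp4 at 1.06, so that no single cell carried either difference. Whether these are single cells or pairs of cells was not tested.

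A second cluster without a name, with endothelial and smooth muscle or pericyte genes (Pcsk1, Gja5, Gkn3), had Igf2 at 189 CPM (WT) and 147 CPM (Sod1KO) in the GFP+ sort, then 199 CPM (WT) and 124 CPM (Sod1KO) in the GFP- sort. Its levels lay below those of the Gkn3 and Gja5 endothelial-like cluster in each library, and its Sod1KO level was the lower one in both sorts. A small cluster of 40 cells led by Bglap2, Mmp13 and Ibsp, genes known from bone-forming cells, had Igf1 at 1448 CPM over all libraries. Since 36 of its cells came from Sod1KO GFP+, this is in the main a level of 1 library.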
